A study of Mus musculus with 6 samples.

Results

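The genes described here are those by which alternative activation of macrophages is usually recognised: Retnla, Chil3, Mrc1, Il4ra, Stat6, Il10 and Folr2. They were taken by symbol from the 34745 genes of the deposited table, in which each of the 7 is listed once, and 6 of the 7 had enough counts to be tested. The libraries come from heart macrophages of C57BL/6 mice aged 8 weeks after myocardial infarction, 3 from mice without legumain (Lgmn KO, replicates 1, 2 and 4) and 3 from wild-type mice (WT, replicates 1, 2 and 3). Legumain is a lysosomal asparaginyl endopeptidase, and the comparison asks how the macrophage transcriptome differs when it is missing. The cells were sorted from digested hearts as live cells after staining for CD45, CD64 and CD11b. The labels speak of ligation of the left anterior descending artery or of a sham operation without tying either to a mouse, while the series describes all samples as taken after infarction. They name no promoter or Cre driver for the Lgmn KO, and do not say whether animals were pooled, so p-values measure the spread between these libraries.

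Interleukin-4 and interleukin-13 bind receptors that share the Il4ra chain, paired with the common gamma chain Il2rg or with Il13ra1. Janus kinases bound to the receptor phosphorylate STAT6, which then enters the nucleus and binds DNA at sites built on TTC and GAA separated by a few bases. In mouse macrophages this turns on Retnla, Chil3, Mrc1 and Arg1, the genes of the alternative state associated with tissue repair. Interleukin-10 acts through a separate receptor and STAT3 and dampens inflammation. Folr2 encodes folate receptor beta, a surface protein used to mark resident macrophages of the heart and other tissues.

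Because STAT6 acts on its targets through their promoters, the stretches before the start of Retnla and Chil3 are shown, with matches to TTC and GAA held 4 or 3 bases apart in capitals. The sequences are from RefSeq, build GRCm38.p6, in the direction of transcription.
Retnla, chr16:48842359-48842550, plus strand: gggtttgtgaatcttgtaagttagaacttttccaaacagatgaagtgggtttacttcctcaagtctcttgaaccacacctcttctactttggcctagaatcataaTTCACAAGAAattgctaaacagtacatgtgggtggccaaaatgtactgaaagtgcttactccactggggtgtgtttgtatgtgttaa
Chil3, chr3:106167565-106167814, minus strand: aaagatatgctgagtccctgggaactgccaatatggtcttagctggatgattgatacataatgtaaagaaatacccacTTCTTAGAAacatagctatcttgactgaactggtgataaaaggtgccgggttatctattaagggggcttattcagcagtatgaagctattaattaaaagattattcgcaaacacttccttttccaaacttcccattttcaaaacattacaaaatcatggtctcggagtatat
The Retnla match, TTCACAAGAA, begins 145 bases before the RefSeq start. The Chil3 match, TTCTTAGAA, has the shorter spacing and begins 172 bases before the start. The same 9 letters lie 200 bases before the start of Chil4, the near copy of Chil3. Promoter windows were found for 6 of the 7 members, and those of Mrc1, Il4ra, Stat6 and Folr2 hold neither pattern within 250 bases before the start. Both patterns read the same on either strand. The pattern with 4 bases between TTC and GAA is in 5.85%, and that with 3 bases in 7.02%, of 32807 promoter windows of that length, so a match is a description of the letters and not evidence of binding.

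Legumain mRNA itself was at 78.7, 88.5 and 83.5 CPM in Lgmn KO libraries 1, 2 and 4, against 2205, 2692 and 2277 CPM in WT libraries 1, 2 and 3. CPM is the count divided by the TMM-adjusted library size, a measure of share that corrects for depth. The genotype labels therefore match the targeted gene in 6 of 6 libraries, with some Lgmn reads left in each Lgmn KO library. Total counts ran from 19546253 to 24086976 per library, at which 3 counts, the limit that a count of 0 allows, equal 0.125 to 0.153 CPM (counting error only). Between libraries of the same genotype, chi-square over all genes was 14.0 to 42.7 times its degrees of freedom, so the spread was well above sampling noise. In edgeR's quasi-likelihood test 99 of 12546 genes, 0.789%, passed a Benjamini-Hochberg adjusted p of 0.05, of which 60 were lower and 39 higher in Lgmn KO. Of the macrophage markers, Ptprc (CD45), Itgam (CD11b), Fcgr1 (CD64), Adgre1 and Cd68 were present in all 6 libraries. Ptprc, Itgam and Fcgr1 encode the proteins stained for in the sort, so their presence is no separate test of the macrophage label. Markers of other cells are given further below.

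Among the members, Retnla fell to 30.8% of its WT level in Lgmn KO cells, and it was the one member that passed the test. Il4ra and Mrc1 had lower mean levels in Lgmn KO, by 1.67-fold and 1.64-fold, but did not pass. Stat6, Chil3 and Folr2 had close means in the genotypes, and Il10 was at or near 0 counts. The single lower call among 6 tested members stands beside a background of 0.478% of all genes called lower. DESeq2 called 3 members lower, Retnla, Il4ra and Mrc1, against 3.59% of all genes. The same 3 were called by edgeR without WT 1, against 3.67%, and have q-values below 0.05 in the authors' deposited table, against 2.8% of its genes with a q-value. Among other alternatives, RLE factors, no low-count filter and an adjusted p of 0.1 gave 1 member, and edgeR without any one of the other 5 libraries gave 0. The median log2 fold change of the 6 was -0.41, against -0.0021 over all 12546 genes, and 4 of the 6 were negative, against 50.4% of all genes. In bulk samples such as these, fewer cells of a type and less RNA per cell cannot be told apart.

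**Figure D1:**
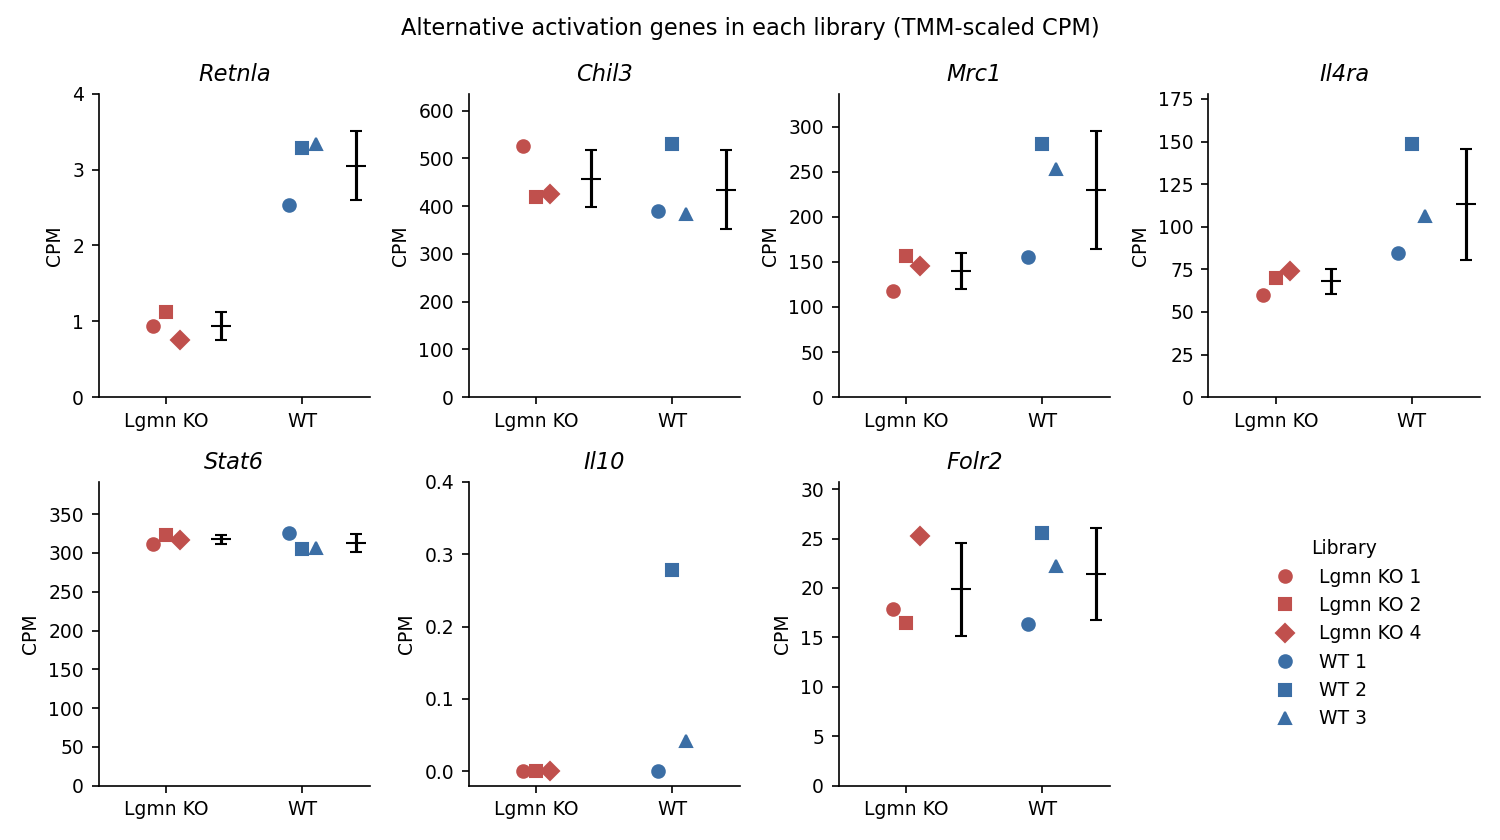
TMM-scaled CPM of each member in the 6 libraries, 1 panel per gene with its own axis from 0; bars give the mean and SD of 3 libraries, except for Il10. Retnla and Il4ra do not overlap between genotypes, while Stat6, Chil3 and Folr2 do.

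Of the receptor, Il4ra (ENSMUSG00000030748, chromosome 7, 125552120 to 125579474, plus strand, GRCm38) is the chain common to interleukin-4 and interleukin-13 signalling. Its level was 60.0, 69.8 and 73.9 CPM in Lgmn KO 1, 2 and 4, from 1216, 1366 and 1567 counts. It was 84.6, 148 and 106 CPM in WT 1, 2 and 3, from 1737, 3207 and 2553 counts. Every Lgmn KO library was below every WT library, with WT 2 well above the others and WT 1 the WT library nearest to Lgmn KO. The groups likewise did not overlap, with Lgmn KO lower, in 13% of all genes tested. Mean levels were 67.9 ± 7.13 CPM in Lgmn KO against 113 ± 32.5 CPM in WT (n = 3 each, SD). The log2 fold change was -0.74 (SE 0.20, 95% interval -1.19 to -0.28), and edgeR's adjusted p was 0.120, so Il4ra was not called. It was called by edgeR without WT 1 (log2 fold change -0.91, adjusted p 0.0250) and by DESeq2 with all libraries (-0.73, adjusted p 0.00664), but not in the other 5 fits with a library left out, and its log2 fold change was -0.49 without WT 2 (edgeR adjusted p 0.206). In the authors' deposited table its log2 fold change is -0.75 with a q-value of 0.00444. Its exons overlap a predicted gene on the opposite strand, and 8.44% of its 50-base transcript stretches also occur in that same gene.

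Around the receptor, 4 of the 9 tested genes of the list of ligands, receptor chains and kinases, in which Il4ra and Stat6 are included, had an unadjusted p below 0.05 in edgeR's test, Il4ra, Il13ra1, Il2rg and Jak3, each with a lower mean in Lgmn KO. None of the 9 passed the adjusted threshold, and DESeq2 called 4, all lower. Over all genes, an unadjusted p below 0.05 was found with a lower mean for 10.6% and with a higher mean for 6.9%, and DESeq2 called 3.59% lower and 1.98% higher. The list's median log2 fold change was -0.20, with 7 of 9 negative. Jak2, Tyk2 and Irs2 overlapped between genotypes, with log2 fold changes of -0.20, -0.17 and 0.07.

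Il13ra1, which pairs with Il4ra to bind interleukin-13, was at 34.3, 39.3 and 37.9 CPM in Lgmn KO 1, 2 and 4 and at 41.3, 70.6 and 56.5 CPM in WT 1, 2 and 3. Its Lgmn KO libraries all lay below its WT libraries, with WT 1 close above Lgmn KO 2 (log2 fold change -0.60, SE 0.18, edgeR adjusted p 0.155). Without WT 1 it was called (-0.77, edgeR adjusted p 0.0188), and without WT 2 it was at -0.40 (edgeR adjusted p 0.340); 5 of the 6 fits with a library left out did not call it. Il2rg, the common gamma chain, was at 77.4, 83.6 and 92.2 CPM against 107, 122 and 107 CPM, again without overlap (-0.41, SE 0.09, edgeR adjusted p 0.0862). Jak3, the kinase that binds Il2rg, was at 14.2, 19.6 and 17.8 CPM against 23.9, 30.7 and 29.1 CPM (-0.70, SE 0.15, edgeR adjusted p 0.0817). Exons of both Il2rg and Jak3 overlap another gene on the same strand, so part of their counts may be shared. Jak1, which binds Il4ra, was at 444 ± 18.2 CPM in Lgmn KO against 450 ± 4.01 CPM in WT (n = 3 each, SD; log2 fold change -0.02, 95% interval -0.16 to 0.12). Il4, Il13 and the decoy receptor Il13ra2 had 0 counts in all 6 libraries, and each was therefore below 0.153 CPM.

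**Figure D2:**
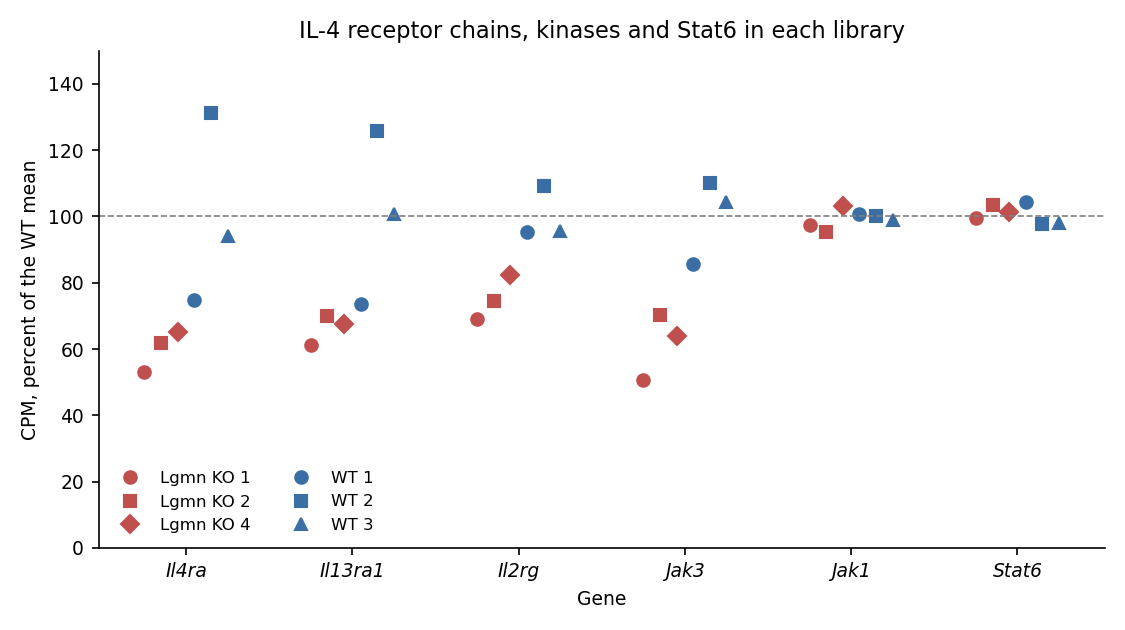
CPM of Il4ra, Il13ra1, Il2rg, Jak3, Jak1 and Stat6 in each library as a percentage of the gene's WT mean (dashed line at 100). The first 4 genes have all Lgmn KO libraries below all WT libraries, as 13% of all genes tested do, and Jak1 and Stat6 stay near 100 in all 6. Jak2, Tyk2 and Irs2, the other tested genes of the list, overlap between genotypes and are not drawn.

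Stat6, the transcription factor that carries the receptor's signal, had, for its mean, the smallest spread between libraries of the 6 tested members. The gene (ENSMUSG00000002147) lies on chromosome 10, 127642986 to 127660957, plus strand. Its level was 311, 324 and 317 CPM in Lgmn KO 1, 2 and 4, against 326, 306 and 307 CPM in WT 1, 2 and 3, from 6309 to 7350 counts. The groups overlapped, with the highest and lowest libraries both WT. Means were 317 ± 6.18 CPM in Lgmn KO against 313 ± 11.6 CPM in WT (n = 3 each, SD). The log2 fold change was 0.02 (SE 0.06), with a 95% interval of -0.12 to 0.17, that is 0.918 to 1.12 times the WT level (edgeR adjusted p 0.901). Its exons overlap those of Nab2 on the opposite strand.

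In the STAT family, 0 of 7 tested genes passed the adjusted edgeR threshold, and the median log2 fold change was -0.56. Of the 7, 4 had an unadjusted p below 0.05, all lower in Lgmn KO (10.6% of all genes), and DESeq2 called 3 lower (3.59% of all genes). Stat2, which acts in type I interferon signalling, was at 39.1 ± 1.95 CPM in Lgmn KO against 71.2 ± 22.5 CPM in WT (n = 3 each, SD; log2 fold change -0.86, edgeR adjusted p 0.0934). Stat3, used by interleukin-10 and interleukin-6, was at 118 ± 13.3 and 174 ± 26.3 CPM (-0.56, edgeR adjusted p 0.0909). The difference between Stat6 and these genes was not itself tested.

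Genes whose products restrain the receptor had 11 of 11 list members tested. None was called by edgeR; 6 had an unadjusted p below 0.05, all with lower means in Lgmn KO (10.6% of all genes), and DESeq2 called 3 lower (3.59% of all genes). Cish, a STAT-induced inhibitor of cytokine receptors, was at 0.407 ± 0.0966 CPM in Lgmn KO against 2.80 ± 2.18 CPM in WT (log2 fold change -2.76, edgeR adjusted p 0.0866). WT 2, at 5.28 CPM, was above WT 1 and WT 3, at 1.17 and 1.96 CPM, and the log2 fold change was -1.93 without it. Socs2 and Socs3, of the same family of feedback inhibitors, had log2 fold changes of -2.23 and -1.41 with edgeR adjusted p values of 0.1003 and 0.103, and of -1.64 and -1.03 without WT 2. The phosphatases Ptpn1 and Ptpn6 had log2 fold changes of -0.26 and -0.41 (edgeR adjusted p 0.225 and 0.175). The median of the 11 was -0.29.

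Retnla (ENSMUSG00000061100) encodes the secreted resistin-like molecule alpha, made by macrophages exposed to interleukin-4. It lies on chromosome 16, 48842552 to 48844461, plus strand, and was a low-count gene here, with 19, 22 and 16 counts in Lgmn KO 1, 2 and 4, against 52, 71 and 80 counts in WT 1, 2 and 3. These are 0.938, 1.12 and 0.754 CPM in Lgmn KO and 2.53, 3.29 and 3.34 CPM in WT. Each Lgmn KO library was below each WT library, the highest Lgmn KO library holding less than the lowest WT library by a wide margin. Means were 0.939 ± 0.185 and 3.05 ± 0.451 CPM (n = 3 each, SD), so Lgmn KO had 30.8% of the WT mean. The fitted difference was 3.25-fold lower in Lgmn KO (log2 fold change -1.70, SE 0.26, 95% interval -2.32 to -1.08, edgeR adjusted p 0.0444), close to the threshold.

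The direction and size for Retnla stayed between -1.84 and -1.57 on the log2 scale when any single library was left out, but its call did not. The edgeR adjusted p was 0.0209 without WT 1 and between 0.123 and 0.161 without Lgmn KO 1, Lgmn KO 2, Lgmn KO 4, WT 2 or WT 3, fits in which far fewer genes passed anywhere (6 to 35, against 639 without WT 1). DESeq2 gave an adjusted p of 0.000572, and the authors' deposited table has a log2 fold change of -1.71 with a q-value of 0.000104. No 50-base stretch of its transcript occurs in another gene. Of its family, Retnlg, a neutrophil gene, was at 0.672 ± 0.0167 CPM in Lgmn KO against 0.754 ± 0.238 CPM in WT (n = 3 each, SD; log2 fold change -0.16, edgeR adjusted p 0.877), and Retn and Retnlb had 0 counts throughout.

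Chil3 (ENSMUSG00000040809) encodes Ym1, a secreted chitinase-like protein without chitinase activity, and lies on chromosome 3, 106147554 to 106167564, minus strand. It was the most abundant member. Its level was 526, 420 and 425 CPM in Lgmn KO 1, 2 and 4, against 390, 530 and 384 CPM in WT 1, 2 and 3, from 8019 to 11444 counts. The groups overlapped fully, and in each group 1 library, Lgmn KO 1 and WT 2, was above the others. Means were 457 ± 59.5 and 435 ± 82.5 CPM (n = 3 each, SD), with a log2 fold change of 0.07 (SE 0.15, 95% interval -0.27 to 0.42, edgeR adjusted p 0.852). The interval for Chil3 therefore does not overlap that of Retnla, although the difference between these genes was not tested. Chil3 shares 26.9% of its 50-base transcript stretches with other genes, most of them with Chil4, which itself had only 2 to 4 counts per library. Ctbs, the other tested gene of the family, had a log2 fold change of -0.05.

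Mrc1 (ENSMUSG00000026712) encodes the macrophage mannose receptor, CD206, and lies on chromosome 2, 14229392 to 14332057, plus strand. It had 2385, 3057 and 3087 counts in Lgmn KO 1, 2 and 4, against 3195, 6060 and 6066 in WT 1, 2 and 3, that is 118, 156.25 and 146 CPM against 155.52, 281 and 253 CPM. The groups touched: WT 1 was just below Lgmn KO 2, and WT 2 and WT 3 were above all Lgmn KO libraries. Means were 140 ± 19.9 and 230 ± 65.7 CPM (n = 3 each, SD), which gave a fitted log2 fold change of -0.72 (SE 0.21, 95% interval -1.22 to -0.22, unadjusted edgeR p 0.0112, adjusted p 0.152). Without WT 1 it was called (-0.93, edgeR adjusted p 0.0143), as it was by DESeq2 (-0.71, adjusted p 0.0161). The other 5 fits with a library left out did not call it, and without WT 2 it was at -0.55 (edgeR adjusted p 0.362). The authors' deposited table has a log2 fold change of -0.73 and a q-value of 0.0127. Of the mannose receptor family, 0 of 4 were called by edgeR, 3 had an unadjusted p below 0.05 with a lower mean (10.6% of all genes), and DESeq2 called 2 lower (3.59% of all genes). Mrc2 was at 0.755 ± 0.164 and 1.63 ± 0.278 CPM (-1.11). Pla2r1 was at 0.161 ± 0.0974 and 1.04 ± 0.553 CPM (-2.62, SE 0.65, edgeR adjusted p 0.104). Its Lgmn KO mean lies near the limit that a count of 0 allows, up to 0.153 CPM. DESeq2 called Pla2r1, and no edgeR fit with a library left out did. Ly75, an endocytic receptor of dendritic cells and macrophages, was at 136 ± 8.80 and 125 ± 19.5 CPM (0.12).

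**Figure D3:**
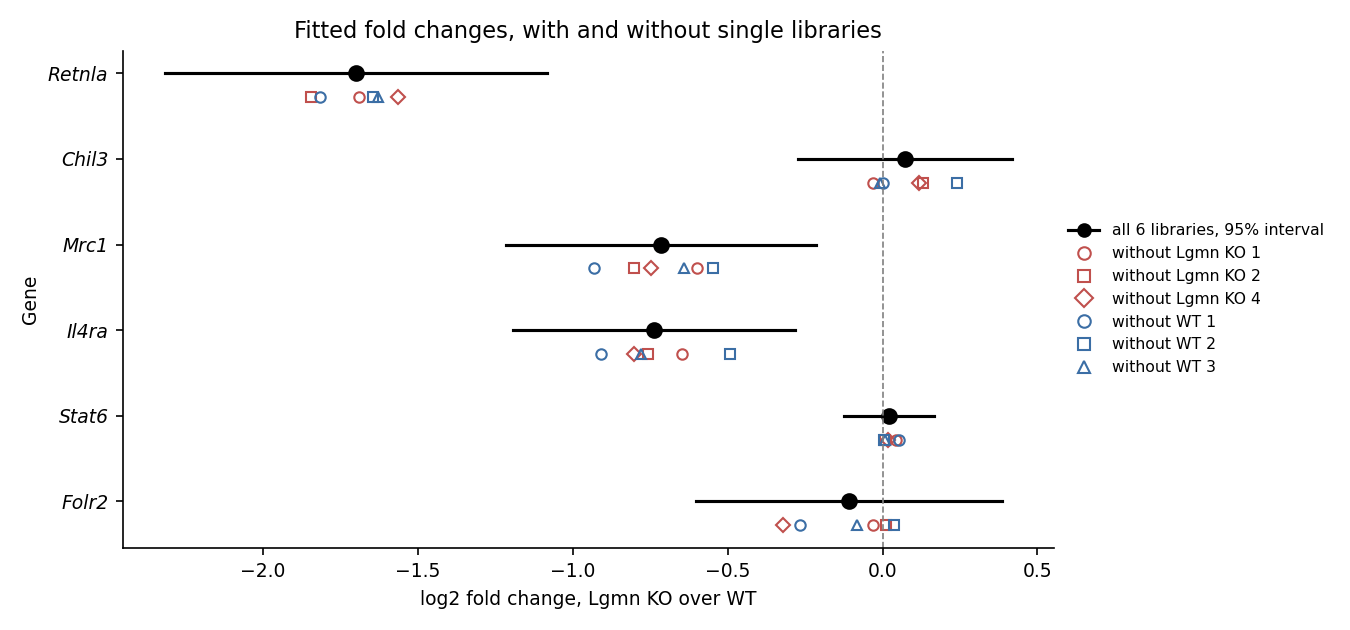
Fitted log2 fold change (Lgmn KO against WT) for the 6 tested members with the 95% interval (filled circles) and, under each, the value with a single library left out (open symbols). Retnla stays below -1.5 in all 7 fits, Mrc1 and Il4ra stay negative, and Chil3 and Folr2 lie on both sides of 0.

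The wider list of genes known to be induced by interleukin-4 in macrophages held 30 genes, Retnla, Chil3 and Mrc1 among them, of which 24 were tested. Retnla fell and Slc7a2 rose; the other 22 did not pass edgeR's adjusted threshold. The list's median log2 fold change was -0.33, with 17 of 24 negative. An unadjusted p below 0.05 was reached by 8 with a lower and 2 with a higher mean, and DESeq2 called 9, of which 7 lower. Over all genes, edgeR called 0.478% lower and 0.311% higher, an unadjusted p below 0.05 was reached by 10.6% lower and 6.9% higher, and DESeq2 called 3.59% lower and 1.98% higher.

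Slc7a2, which imports arginine and is itself an IL-4 target, was at 46.6, 52.6 and 41.8 CPM in Lgmn KO 1, 2 and 4, against 17.3, 23.0 and 16.4 CPM in WT 1, 2 and 3. All Lgmn KO libraries were above all WT libraries, as for 10.7% of all genes tested (log2 fold change 1.32, SE 0.15, edgeR adjusted p 0.0212). The call was lost without Lgmn KO 1 (edgeR adjusted p 0.0619), Lgmn KO 2 (0.116) or WT 3 (0.0744). Arg1, which converts arginine to ornithine, is named here after its values were seen. It was at 2.96, 2.25 and 5.89 CPM against 6.38, 60.5 and 19.7 CPM, with WT 2 far above the others (-2.96, edgeR adjusted p 0.123), and its log2 fold change was -1.82 without WT 2. Irf4, a transcription factor downstream of STAT6, was at 1.23 ± 0.679 and 5.13 ± 1.49 CPM (n = 3 each, SD; -2.06, edgeR adjusted p 0.0837). Clec7a, the beta-glucan receptor dectin-1, was at 399 ± 31.8 and 666 ± 209 CPM (-0.74, edgeR adjusted p 0.141).

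**Figure D4:**
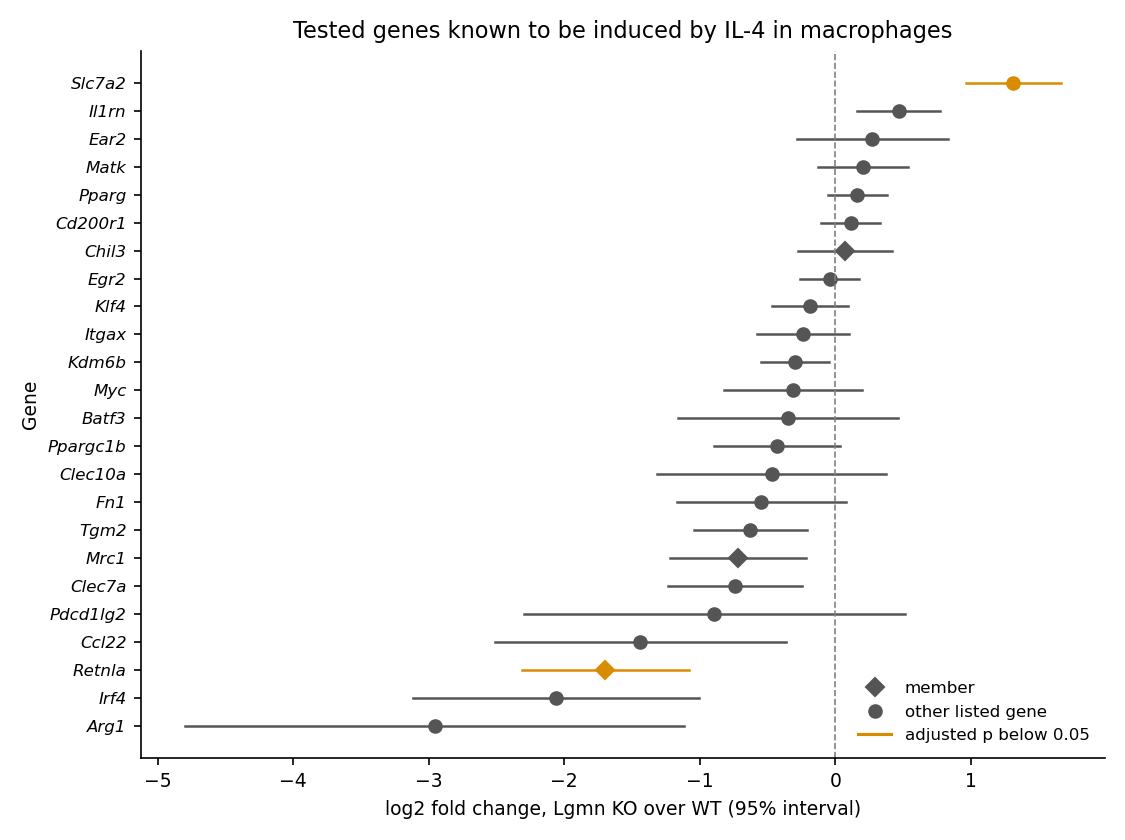
Lgmn KO over WT log2 fold change with its 95% interval for the 24 tested genes of the IL-4-induced list, sorted by value; diamonds are members and orange marks an edgeR adjusted p below 0.05. Slc7a2 (1.32) and Retnla (-1.70) are the marked genes, and 17 of the 24 values are below 0.

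Il10 (ENSMUSG00000016529) encodes interleukin-10, an anti-inflammatory cytokine, and lies on chromosome 1, 131019845 to 131024974, plus strand. It had 0 counts in the 3 Lgmn KO libraries and 0, 6 and 1 counts in WT 1, 2 and 3. The value of WT 2 equals 0.278 CPM, and the other 5 libraries lie under the limit that a count of 0 allows. It was therefore not tested here, and its counts were too few and too uneven between WT libraries to compare the genotypes. In the authors' deposited table its q-value is 0.602. Of the list of its receptor and downstream genes, 17 of 18 were tested, with a median log2 fold change of -0.34 and 13 of 17 negative. The list includes Il4ra, Jak1, Tyk2, Stat3 and Socs3, which are also in lists given above, so its counts are not separate from theirs. In edgeR's test Il21r was called lower and 0 were called higher (0.478% and 0.311% of all genes). An unadjusted p below 0.05 was reached by 9 with a lower and 1 with a higher mean (10.6% and 6.9% of all genes). DESeq2 called 6, all lower (3.59% of all genes), with Il4ra, Stat3 and Socs3 among them.

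The receptor chains Il10ra and Il10rb, named after their values were seen, were at 51.5 ± 9.88 against 65.9 ± 5.98 CPM (log2 fold change -0.36, edgeR adjusted p 0.258) and at 309 ± 12.99 against 281 ± 6.85 CPM (0.14, edgeR adjusted p 0.330; SD, n = 3 each). Il21r, the interleukin-21 receptor, which lies on chromosome 7 at 125603429 to 125633570, on the same chromosome as Il4ra, was at 1.03 ± 0.338 CPM in Lgmn KO against 9.27 ± 4.14 CPM in WT (-3.16, edgeR adjusted p 0.0277). Its call was lost without Lgmn KO 1, Lgmn KO 2, Lgmn KO 4 or WT 3. Maf, a transcription factor of the IL-10 programme, was at 71.1 ± 8.48 and 127 ± 32.2 CPM (-0.84, edgeR adjusted p 0.0862). Bcl3, an inhibitor of NF-kappaB signalling, had a log2 fold change of -0.97 (edgeR adjusted p 0.0727), and Hmox1, heme oxygenase, one of 0.22 (edgeR adjusted p 0.248).

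Folr2 (ENSMUSG00000032725) lies on chromosome 7, 101839990 to 101845331, minus strand. Its level was 17.9, 16.5 and 25.2 CPM in Lgmn KO 1, 2 and 4, against 16.4, 25.6 and 22.2 CPM in WT 1, 2 and 3, from 322 to 553 counts. Both groups covered nearly the same range. Means were 19.8 ± 4.71 and 21.4 ± 4.65 CPM (n = 3 each, SD), with a log2 fold change of -0.11 (SE 0.21, 95% interval -0.60 to 0.38, edgeR adjusted p 0.843). The interval runs from 0.658 to 1.31 times the WT level, so equal levels are not shown. Its exons overlap a predicted gene on the opposite strand, and 52.6% of its 50-base transcript stretches also occur in that same gene. Its counts may therefore include reads of that gene.

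The list of genes that mark Folr2-positive resident macrophages, in which Folr2, Mrc1 and Maf are included, had 14 of 18 tested, with a median log2 fold change of -0.53 and 11 of 14 negative. An unadjusted p below 0.05 was reached by 7 with a lower and 2 with a higher mean (10.6% and 6.9% of all genes), and DESeq2 called 5 lower and 2 higher (3.59% and 1.98%). Gas6, a bridging ligand for dying cells, fell, from 41.8 ± 4.95 CPM in WT to 24.9 ± 0.159 CPM in Lgmn KO (n = 3 each, SD; -0.75, edgeR adjusted p 0.0297). Its call was lost without Lgmn KO 1, Lgmn KO 2, Lgmn KO 4, WT 2 or WT 3. Pf4, a platelet and macrophage chemokine, was at 48.6 ± 2.26 and 73.6 ± 10.2 CPM (-0.60, edgeR adjusted p 0.0555). Selenop, a selenium transport protein, and Stab1, a scavenger receptor, had log2 fold changes of -0.62 and -0.46 (edgeR adjusted p 0.219 and 0.300). Ccl8, a chemokine, was at 0.384 ± 0.362 and 2.67 ± 0.785 CPM (-2.76, edgeR adjusted p 0.0756), and its log2 fold change was -3.89 without Lgmn KO 4. Igf1, insulin-like growth factor 1, and Vsig4, a complement receptor of resident macrophages, are named after their values were seen, as they were higher in every Lgmn KO library than in any WT library. The same held for 10.7% of all genes tested. Igf1 was at 268 ± 20.2 and 190 ± 26.5 CPM (0.50, edgeR adjusted p 0.0889), and Vsig4 at 4.25 ± 1.13 and 1.40 ± 0.555 CPM (1.61, edgeR adjusted p 0.0841). Lyve1 and Cd209f had 0 counts in all libraries, and Timd4 and Cd163 had at most 14 and 8 counts in any. Folate uptake and retention had 0 of 11 tested genes called by edgeR, with a list median of -0.13. An unadjusted p below 0.05 was reached by 3, of which 2 lower and 1 higher, against 10.6% and 6.9% of all genes. Of these, Ggh, Shmt1 and Mthfd2 had log2 fold changes of -0.06, -0.64 and 0.48.

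Levels of different members were compared only per transcript length, with the deposited FPKM. Chil3 was highest in every library (184 to 255 FPKM), then Stat6 (52.8 to 57.5), Mrc1 (15.7 to 37.6), Folr2 (15.3 to 23.7), Il4ra (6.52 to 16.2), Retnla (1.25 to 5.55) and Il10 (0 to 0.212). The ranges of neighbours in this order did not overlap except for Mrc1 and Folr2, of which Mrc1 was the higher in 4 of 6 libraries, and Folr2 and Il4ra, of which Folr2 was the higher in 6 of 6.

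**Figure D5:**
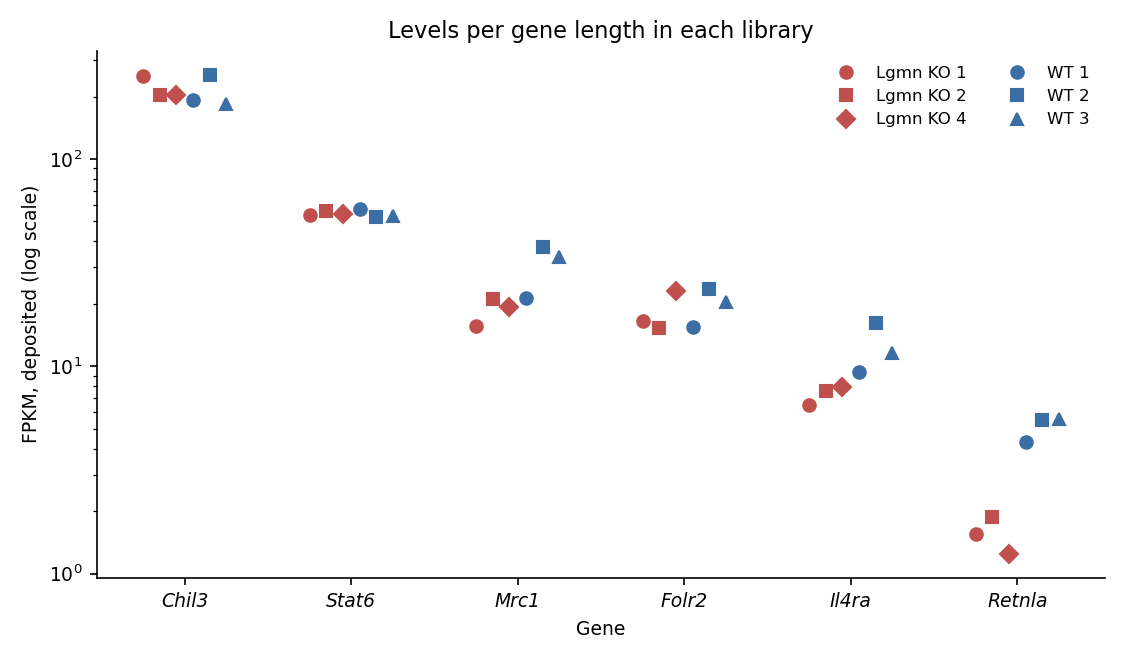
Deposited FPKM on a log axis for each member but Il10, in each of the 6 libraries. Chil3 and Stat6 lie above the rest, and Retnla, the lowest, has its Lgmn KO libraries at 1.25 to 1.88 and its WT libraries at 4.31 to 5.55 FPKM.

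For each tested member the 3 genes with the most similar profile over the 6 libraries were taken, by the root mean square difference of log2 CPM centred on each gene's mean. For Retnla these were Phlpp1, Tlr2 and Itgal, with differences of 0.24, 0.24 and 0.24, against a median of 0.84 over 9564 genes. For Mrc1 they were Lfng, Maf and Clec7a (0.083 to 0.094, median 0.47), and for Il4ra Tap2, Pstpip2 and Clec7a (0.051 to 0.077, median 0.46). The dectin-1 gene Clec7a is in both sets. Chil3 was closest to Aurkaip1, Mtdh and Ift22, Stat6 to Cpsf1, Dctn1 and Cdc23, and Folr2 to Fam49a, Rgs3 and Hgf. These are the nearest of all these genes over 6 libraries that differ in genotype, and are a description without a test.

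Markers of other cells that could share the sort moved with these results in part. Summed levels of 10 macrophage markers were 5648 to 6642 CPM in Lgmn KO and 6132 to 8661 CPM in WT. The median log2 fold change of these 10 was -0.63, against -0.41 for the members, and 8 of the 10 had an unadjusted p below 0.05 with a lower mean (10.6% of all genes). Of the 10, edgeR called C1qa, a complement subunit, lower (-2.37, adjusted p 0.0486, lost with RLE factors at 0.0511 and in every fit with a library left out but that without WT 1), and DESeq2 called 4 lower. Over all genes, edgeR called 0.478% and DESeq2 3.59% lower. Sums of 10 T and NK cell markers were 0.888 to 1.60 and 5.26 to 13.6 CPM, with Ncr1 at 0. Sums of 8 monocyte markers were 211 to 417 and 414 to 510 CPM, those of 8 dendritic cell markers 3.26 to 5.19 and 5.31 to 15.8 CPM, with Siglech at 0, and those of 8 fibroblast markers 45.4 to 117 and 132 to 181 CPM. In the T and NK cell and dendritic cell lists edgeR called 1 gene lower each, and DESeq2 called 7 and 1 lower. In the monocyte and fibroblast lists edgeR called 0, and DESeq2 called 3 and 1 lower. Median log2 fold changes of the 4 lists, in that order, were -3.29, -1.50, -1.38 and -0.78. The T and NK cell, dendritic cell and fibroblast sums were lower in every Lgmn KO library than in any WT library, as Retnla and Il4ra were, and the monocyte sums overlapped in 1 library of each group, as Mrc1 did. Fcgr1, the CD64 of the sort, was at 78.2, 85.8 and 123 CPM in Lgmn KO 1, 2 and 4, against 114, 311 and 185 CPM in WT 1, 2 and 3, with WT 2 highest as for Il4ra and Arg1. The part of these markers in the results was not tested.

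Eosinophils, a known source of interleukin-4, had marker sums of 4.34 to 7.10 and 9.77 to 12.5 CPM, almost all from Siglecf, with the granule genes Epx, Prg2 and Ear1 at 0 in every library. These sums were lower in every Lgmn KO library than in any WT library, as the T and NK cell sums were. Of the 7 eosinophil markers 1 was tested (log2 fold change -1.12), and edgeR called 0. That gene had an unadjusted edgeR p below 0.05 (10.6% of all genes lower), and DESeq2 called 1 marker lower (3.59%). Mast cell and basophil markers summed to at most 1.76 CPM, with Mcpt4, Ms4a2 and Fcer1a at 0. The list for type 2 lymphoid cells summed to 1161 to 1386 CPM in Lgmn KO and 839 to 1079 CPM in WT, with Il5 at 0. Il7r alone made up 815 to 1361 CPM of these sums (log2 fold change 0.38, edgeR adjusted p 0.154), while Il1rl1, the interleukin-33 receptor, was at 0.545 ± 0.190 and 2.05 ± 0.988 CPM (-1.90, edgeR adjusted p 0.113). Of the 7 genes of that list 3 were tested, 1 with an unadjusted p below 0.05 in each direction (10.6% of all genes lower and 6.9% higher). DESeq2 called Il1rl1 lower (adjusted p 0.0225) and Il7r higher (adjusted p 0.0456), against 3.59% and 1.98% of all genes. Neutrophil markers were at 201 to 232 and 169 to 200 CPM, also without overlap. Sums overlapped for B cell markers (8.59 to 11.6 and 7.30 to 21.0 CPM), endothelial markers (178 to 235 and 154 to 208 CPM, with Tek and Emcn at 0) and cardiomyocyte markers (2.37 to 3.77 and 2.84 to 3.60 CPM). Of the endothelial markers 4 were tested, 2 with a negative and 2 with a positive log2 fold change (median -1.26). Among these edgeR called 1 lower (0.478% of all genes) and DESeq2 2 lower (3.59%). The part of these cells in the results was not tested.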

How the data were processed

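Messenger RNA libraries of 6 sorted cardiac macrophage samples were compared, 3 Lgmn KO and 3 WT, grouped by their labels. Tools named in the submitters' processing notes are HISAT2, TopHat and TopHat2 (2.0.9), their roles unstated, and the build named there is hg38, a human one, but the gene positions are those of mouse (98.6% of the gene IDs are in GENCODE M21, GRCm38). No source used here states the read counter or its strand setting. Per the file headers, the authors' table holds a count and an FPKM value per gene and library, and the authors' own log2 fold change, p-value and q-value. The deposited counts are whole numbers and were tested as deposited. The deposited FPKM were only described.

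Genes were kept by filterByExpr, scaled by TMM, and tested with edgeR 4.0.16 (glmQLFit, glmQLFTest; R 4.3.3) without covariates. Benjamini-Hochberg adjustment ran over all 12546 genes, and an adjusted p below 0.05 was called. The common biological coefficient of variation was 16.1%. Alternatives were DESeq2 1.42.0, RLE factors, no low-count filter, a replicate block, an adjusted p of 0.1 and each library left out. The procedure was tested on simulated data. All 207 genes in the 23 lists were found in the table. The genes named are the members, the ligands and receptor chains, and from each list the called genes, the 3 with the lowest p and the 2 with the highest mean level, printed where they matter, and the 3 nearest profiles. A few genes that this rule names are not reported here. The members and lists were chosen with earlier results of these data known.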

Additional observations from a re-analysis of the deposited data

How the results depend on the processing

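Of the 60 alternative values of the 6 tested members, 46 kept their direction and their side of the threshold, 4 passed it, 6 no longer passed it and 4 changed sign. For the other named genes 329 of 400 stayed, 46 passed, 21 no longer passed and 4 changed sign. The 99 genes called by edgeR (39 higher, 60 lower) became 318 (88 and 230) without the low-count filter, 780 (277 and 503) with DESeq2, 503 (179 and 324) at an adjusted p of 0.1, and 6 to 639 (3 to 169 and 3 to 470) with 1 library left out, with most calls without WT 1. The count of members called went from 1 to 3 with DESeq2 and 0 to 3 with 1 library left out. With the replicate number as a block 39 genes were called (9 and 30) and 0 members, with Retnla at -1.49 (adjusted p 0.236). Libraries share only the numbers 1 and 2 between genotypes, so the block fit takes its genotype difference from those libraries alone. WT 3 and Lgmn KO 4 add nothing to that difference. Libraries of the same number had correlations of deviations of 0.12 and 0.08. Pairs of unlike number had -0.17 to 0.11. With 3 libraries per genotype these values cannot decide whether the numbers pair libraries. Leaving out 1 library changed signs, with log2 fold changes of -0.0306 (without Lgmn KO 1) to 0.239 (without WT 2) for Chil3, which was at -0.01 without WT 3, of -0.323 (without Lgmn KO 4) to 0.0378 (without WT 2) for Folr2, which was at 0.01 without Lgmn KO 2, of -0.0576 to 0.00497 for Jak1, of -0.386 to 0.0676 for Retnlg and of -0.129 to 0.0153 for Ctbs. The cause was not tested. The few counts of Il10 do not allow a comparison.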
